A study of Homo sapiens with 12 samples.

Results

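NF-κB pathway components are examined here in maps of N4-acetylcytidine (ac4C), an acetylated cytidine in RNA, made in HK-2 cells, an immortalised line of human renal tubular epithelial cells. The group was fixed by gene name as 10 genes: the adaptors MYD88 and TRAF6, the kinases CHUK and IKBKB, the inhibitors NFKBIA and TNFAIP3, and the subunits NFKB1, NFKB2, RELA and RELB. Its members are the rows of the deposited site lists that carry one of these names. Of the 10, 9 had a site in at least 1 list, among 10240 genes with a site. The series compared cells labelled NAT10 knockout (KO), a genotype that its design text calls a knockdown, with wild-type control cells (WT). Both are HK-2, no treatment is named for either, and the sources used here name neither how NAT10 was targeted nor whether KO cells are 1 clone. Each genotype has 3 pairs of an antibody pull-down (IP) and an input library from fragmented total RNA, and each pair gave 1 list of sites.

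NF-κB is a family of transcription factors built as dimers and held inactive in the cytoplasm by inhibitor proteins. Receptors for microbial products and cytokines act through adaptors and ubiquitin ligases on the IκB kinases, which mark the inhibitor for destruction and free the dimer. In the canonical arm the dimer is mainly RELA with the p50 product of NFKB1. In the noncanonical arm it is RELB with the p52 product of NFKB2. In injured kidney tubules the pathway is known for driving inflammatory genes. NAT10 is the acetyltransferase that writes ac4C.

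A site is a stretch of transcript where the IP exceeded the input, as the authors' peak caller found it. The KO lists held 13818, 17872 and 19136 sites and the WT lists 17541, 17107 and 15289. They give no read counts, so the depth behind a site is unknown. The fold of a site is the authors' ratio of IP over input, at least 2 in every list, and the false discovery rate is theirs too. That rate was 50% or less for 37.6%, 31.9% and 56.8% of sites in KO lists 1, 2 and 3, against 7.18%, 7.88% and 8.07% in WT lists 1, 2 and 3. The targeted gene NAT10 carried 2, 5 and 9 sites in the KO lists and 11, 11 and 8 in the WT lists. These numbers overlap, and with no level of the transcript the genotype labels could not be checked. In KO list 1 the positions and transcript parts stood in another row order than the gene names and were rejoined, so its positions, but not its site numbers, rest on that join. A site list holds no transcript level, so a gene without a site may lack the mark, the transcript or the coverage, and these cannot be told apart. Of 18 markers of epithelium and proximal tubule, 13 had a site in some list, while CDH1, EPCAM, PAX2, AQP1 and SLC34A1 had none. Of 13 markers of leukocytes, endothelium and podocytes, LYZ alone had one.

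The mean number of sites in the NF-κB genes was slightly higher in KO lists with overlapping groups, and single members differed in both directions. The KO lists held 18, 17 and 20 sites in these genes and the WT lists 15, 14 and 18, a mean of 18.3 ± 1.53 against 15.7 ± 2.08 (SD, n = 3 each). The groups overlapped at 18. With every list reduced to the length of the shortest, the numbers were 18, 12 and 13 in KO lists and 12, 13 and 15 in WT lists, and the difference of means was 1 site in place of 2.67. The number of members with a site was 8, 7 and 9 in KO lists and 8, 7 and 8 in WT lists. NFKB1, RELA, RELB, TNFAIP3 and TRAF6 had a site in all 6 lists, as did 39.0% of all genes with a site.

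Site numbers did not overlap between genotypes for 4 of the 9 members. NFKB1, CHUK and TRAF6 had more sites in every KO list than in any WT list, as did 23.7% of all genes with a site. TNFAIP3 had fewer in every KO list, as did 23.1% of all genes. Among genes with a site in all 6 lists, the class that holds NFKB1, TRAF6 and TNFAIP3, these shares were 16.9% and 19.3%. The NF-κB genes stood at 33.3% and 11.1% of 9, that is 3 genes and 1 gene, and these counts do not set the pathway apart. For each of the 4 genes the two-sided exact permutation p was 0.1, the smallest that 3 against 3 lists allow. Adjusted over all genes by the Benjamini-Hochberg method it was 0.214, a value shared by 4793 genes, so none passed 0.05. The labels do not say whether replicates came from separate cultures, so these p-values may measure technical spread only.

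**Figure D1:**
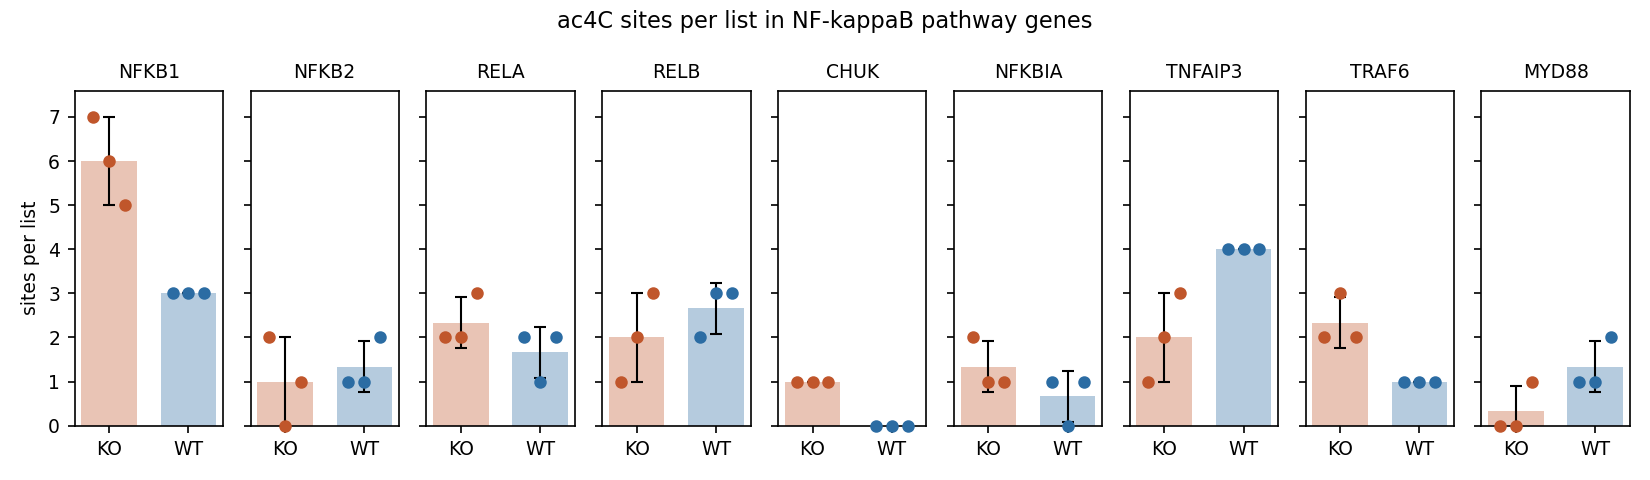
Number of ac4C sites per list (y axis) in each of the 9 NF-κB genes with a site, in KO lists (left in each panel) and WT lists (right). Points are single lists, bars the mean and error bars the SD of 3 lists. NFKB1, CHUK and TRAF6 lie higher and TNFAIP3 lower in all KO lists, and the other 5 genes overlap.

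The adaptors come first in the signal. TRAF6, a ubiquitin ligase (GeneID 7189) that passes signals from Toll-like and interleukin-1 receptors to the kinases, had 2, 3 and 2 sites in KO lists, against 1, 1 and 1 in WT lists (2.33 ± 0.577 against 1 ± 0, SD, n = 3 each). Every KO list thus exceeded every WT list by at least 1 site.

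The site common to all 6 lists lay in the 5' UTR of TRAF6, at chromosome 11, positions 36531598 to 36531863, as the files number them. Its fold was 138, 117 and 104 in KO lists 1, 2 and 3 and 14.8, 8.58 and 12.7 in WT lists 1, 2 and 3. Its percentile among all folds of the list was 97.6, 98.05 and 97.9 in KO lists and 77.4, 55.7 and 69.2 in WT lists. It was the site of highest fold among all NF-κB genes in each KO list, and in no WT list. The false discovery rate of this site was 14.1%, 16.1% and 11.3% in the KO lists, close to the lowest of any site there, and 57.6%, 79.9% and 66.2% in the WT lists. Many sites shared that standing. The peak caller's score was as high or higher for 2254, 1862 and 1576 sites of KO lists 1, 2 and 3, this site included. Folds come from separately called lists and were not tested against each other. KO and WT sites shared 184 bases, of 206 covered in KO and 244 in WT lists. A further TRAF6 site in the 3' UTR, from 36509274 to 36509486, was found in all KO lists with folds of 5.50, 7.14 and 4.38, and in no WT list. A site at the start codon appeared in KO list 2 alone.

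MYD88, the adaptor that recruits interleukin-1 receptor kinases to Toll-like receptors (GeneID 4615), showed the opposite order without separating. It had 0, 0 and 1 sites in KO lists, against 1, 1 and 2 in WT lists (0.333 ± 0.577 against 1.33 ± 0.577, SD, n = 3 each; exact permutation p = 0.3). The groups touched at 1 site. Its start codon site on chromosome 3, from 38180058 to 38180519, had a fold of 5.68 in KO list 3, against 28.1, 20.3 and 14.9 in WT lists 1, 2 and 3. The KO site began upstream of the WT sites and shared 172 bases with them. A second site, in the coding sequence, was listed in WT list 3 only. Without KO list 3 the genotypes did not overlap for MYD88.

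Of the IκB kinases, CHUK (IKKα, GeneID 1147), the catalytic subunit needed for the noncanonical arm, was one of the genes seen in a single genotype. It had 1, 1 and 1 sites in KO lists, against none in any WT list. A site in all KO lists and no WT list was found for 14.9% of all genes with a site. The CHUK site had identical bounds in the 3 KO lists, within the coding part, at chromosome 10, positions 101978765 to 101978883. Its folds of 5.65, 5.68 and 8.20 stood at percentiles 33.0, 38.6 and 56.3 of their lists. Its false discovery rate was 100%, 88.4% and 56.2% in KO lists 1, 2 and 3. When every list was reduced to its 13818 highest-scoring sites, CHUK no longer separated the genotypes. For IKBKB (IKKβ), the main kinase of the canonical arm, the lists used here hold no row. Since 17 lines are empty in the copies used here, its sites were not analysed here.

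The inhibitors differed in where their sites lay. TNFAIP3 (A20, GeneID 7128), a ubiquitin-editing enzyme that shuts the pathway off and is itself an NF-κB target, had 1, 2 and 3 sites in KO lists, against 4, 4 and 4 in WT lists (2 ± 1 against 4 ± 0, SD, n = 3 each). The 3 KO lists all lay under the WT value. TNFAIP3 sites covered 143, 353 and 408 bases in KO lists, against 1225, 873 and 1279 bases in WT lists.

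One TNFAIP3 site was shared by all lists: it lay in the 5' UTR, at chromosome 6, positions 138188481 to 138188679, with folds of 8.86, 17.6 and 16.4 in KO lists and 15.3, 13.8 and 10 in WT lists. These folds overlapped between genotypes. Both coding sites were listed in WT lists only. The upstream one, from 138199569 to 138200174, had folds of 18.8, 22.4 and 26.7 in WT lists 1, 2 and 3 and no site in any KO list. The downstream one, from 138201208 to 138201389, had folds of 32.7, 27.2 and 26.7 in the same lists and likewise none in KO. At the start codon, from 138192350 to 138192659, KO list 3 had a site of fold 3.82, against folds of 17.5, 17.2 and 7.98 in WT lists. A 3' UTR site was found in KO lists 2 and 3 only, with folds of 2.63 and 2.88, near the lower limit of the lists.

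NFKBIA (IκBα, GeneID 4792), the inhibitor that holds RELA dimers in the cytoplasm and is rebuilt as an early target, had 2, 1 and 1 sites in KO lists, against 1, 0 and 1 in WT lists (1.33 ± 0.577 against 0.667 ± 0.577, SD, n = 3 each; exact permutation p = 0.6). The values overlapped. Its start codon region on chromosome 14, from 35873624 to 35873960, was seen in 2 KO and 2 WT lists, with folds of 3.52 and 3.50 in KO lists 1 and 2 and of 3.84 and 4.87 in WT lists 1 and 3. A stop codon site was found in KO lists 1 and 3 and in no WT list, with folds of 7.02 and 6.26.

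Among the subunits, NFKB1 (p105, the precursor of p50; GeneID 4790) held the most sites of any member in each KO list, while TNFAIP3 held more in each WT list. It had 7, 6 and 5 sites in KO lists, against 3, 3 and 3 in WT lists (6 ± 1 against 3 ± 0, SD, n = 3 each), and 779, 684 and 579 bases under sites against 231 in each WT list. All KO lists lay above all WT lists.

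NFKB1 sites of the genotypes were almost entirely at different places. They formed 12 regions, of which 9 were seen in KO only, 2 in WT only and 1 in both, and in that 1 region the KO and WT sites shared just 8 bases. A 5' UTR site at chromosome 4, positions 103422735 to 103422945, had folds of 12.3, 20.0 and 14.1 in KO lists 1, 2 and 3 and was in no WT list. It lay 94515 bases from the nearest site found in WT cells. The other regions seen in KO only were each found in 1 or 2 of the KO lists. The WT sites had identical bounds in the 3 WT lists. The coding site from 103528806 to 103528906 had folds of 13.1, 11.8 and 5.16 in WT lists 1, 2 and 3 and was in no KO list. A WT coding site of 29 bases, with folds of 2.52 to 2.78, lay 69 bases from a KO coding site.

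RELA (p65, GeneID 5970), the main activating subunit of the canonical dimer, had site numbers that overlapped between genotypes. It had 2, 2 and 3 sites in KO lists, against 2, 1 and 2 in WT lists (2.33 ± 0.577 against 1.67 ± 0.577, SD, n = 3 each; exact permutation p = 0.6). When sites under a fold of 4 were left out, and in lists of equal length, every KO list exceeded every WT list. The same held at a false discovery rate of at most 50%, where WT lists kept no NF-κB site. The stop codon region on chromosome 11, from 65423131 to 65423233, was found in all KO lists with folds of 8.86, 6.47 and 8.25 and in WT lists 1 and 2 with folds of 5.48 and 4.54. A 3' UTR region from 65422126 to 65422670 was found in all KO lists with folds of 9.13, 6.17 and 7.46, and in WT list 3 with a fold of 4.89. Every KO list thus held both of these regions, while each WT list held 1 of them. The files assign the sites of both regions to transcript ENST00000525693 and the other RELA sites to NM_021975. The stop codon and 3' UTR named for these 2 regions are those of the former, and need not be parts of NM_021975. Sites seen in a single list were a coding site of fold 3.35 in KO list 3, a start codon site of fold 3.34 in WT list 1 and a further 3' UTR site of fold 3.26 in WT list 3.

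In the noncanonical arm, RELB (GeneID 5971) had 1, 2 and 3 sites in KO lists, against 2, 3 and 3 in WT lists (2 ± 1 against 2.67 ± 0.577, SD, n = 3 each; exact permutation p = 0.7). The numbers overlapped, and of its 6 regions 1 was seen in both genotypes. A coding site on chromosome 19, from 45515299 to 45515534, had folds of 18.9, 18.0 and 25.1 in KO lists 1, 2 and 3 and was in no WT list. A coding site further along the gene, from 45535863 to 45536007, had folds of 13.1, 21.5 and 14.7 in WT lists 1, 2 and 3 and was in no KO list. The region seen in both, from 45540663 to 45541356, held coding and stop codon sites. Its only KO site was a stop codon site of fold 5.68 in KO list 3. WT list 1 had a stop codon site of fold 23.3 there. WT lists 2 and 3 had coding sites of folds 39.7 and 33.7, and WT list 2 also a stop codon site of fold 8.11.

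NFKB2 (p100, the precursor of p52; GeneID 4791) had 2, 0 and 1 sites in KO lists, against 1, 1 and 2 in WT lists (1 ± 1 against 1.33 ± 0.577, SD, n = 3 each; exact permutation p = 1). No region was common to both genotypes. A coding site on chromosome 10, from 104159045 to 104159254, was in all WT lists with folds of 8.48, 7.58 and 8.98. A stop codon site was in KO lists 1 and 3 with folds of 5.67 and 4.33.

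**Figure D2:**
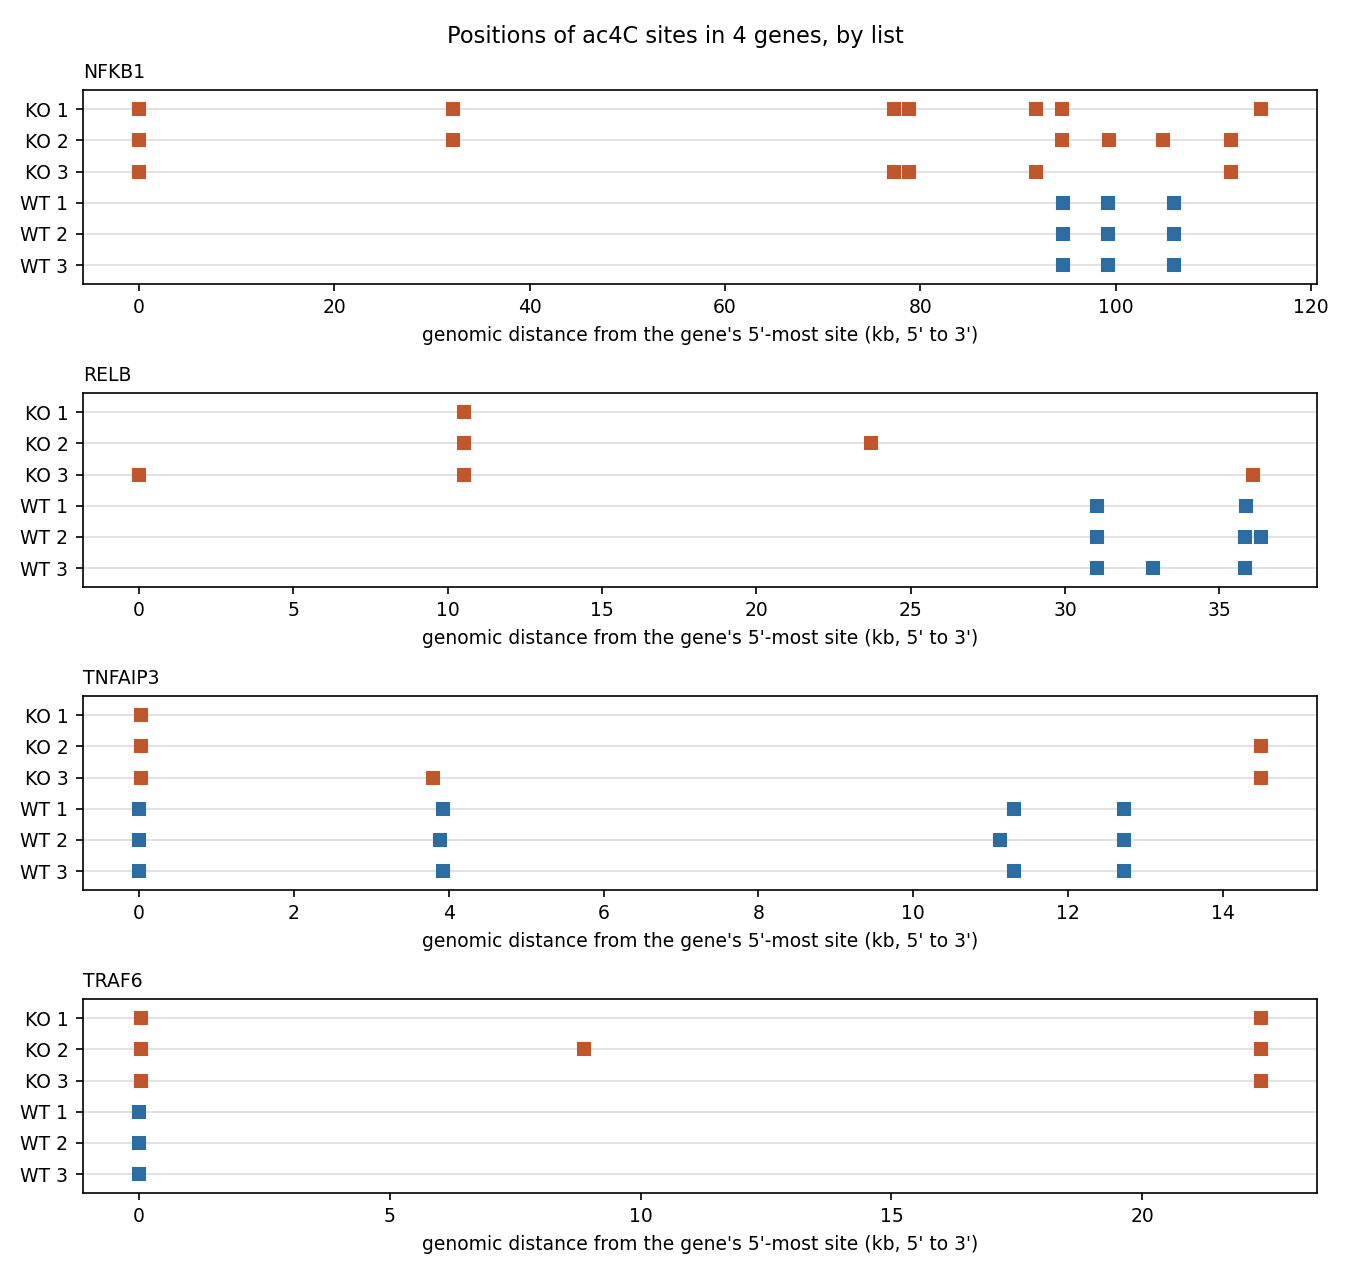
Positions of ac4C sites in NFKB1, RELB, TNFAIP3 and TRAF6, with one row per list (KO above WT) and the genomic distance of each site's centre from the gene's 5'-most site in kilobases on the x axis. Squares mark sites and are not drawn to their length. WT sites of NFKB1 and RELB lie in the 3' portion, while KO sites extend to the 5' end, and the 5' sites of TNFAIP3 and TRAF6 are present in all lists.

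Over the 9 genes, overlapping sites (1 base or more) of the 6 lists formed 40 regions. Of these, 29 were seen in KO, 20 in WT and 9 in both, so 22.5% were common to the genotypes, against 19.1% of all 35919 regions of the series. In all KO and no WT list there were 4 regions, in CHUK, NFKB1, RELB and TRAF6. That is 10% of the NF-κB regions, against 20.9% of all regions. In all WT and no KO list there were 6, which lay in NFKB1, NFKB2, RELB and TNFAIP3 and made up 15%, against 21.8% of all regions. The 5' UTR sites of TNFAIP3 and TRAF6 were the only 2 found in all 6 lists, 5% of the regions against 8.07% of all. RELB and NFKB1 held a region of each kind, which a site number alone does not show.

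Recurrence among the 3 lists of a genotype was also counted. Of the regions seen in KO, 27.6% were in all 3 KO lists, against 51.2% for all regions of the series. Of the regions seen in WT, 60.0% were in all 3 WT lists, against 62.0% for all regions. Of the 10 NFKB1 regions seen in KO, 1 was in all 3 KO lists. These differences were not tested. Where a region was seen in at least 2 lists of a genotype, the bounds were identical in 12 of 18 KO and 9 of 14 WT cases.

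The median fold of NF-κB sites was lower in each KO list than in any WT list, but the genes were divided. NFKB1, RELA, CHUK, NFKBIA and TRAF6 had their highest fold in a KO list, and NFKB2, RELB, TNFAIP3 and MYD88 in a WT list. Genes do not weigh equally in the median. NFKB1 gave 7, 6 and 5 of the 18, 17 and 20 KO sites, and 3 of the 15, 14 and 18 WT sites. The median fold was 5.66, 6.17 and 6.04 in KO lists 1, 2 and 3, with median percentiles of 33.1, 42.8 and 40.6 among the folds of the list. In WT lists 1, 2 and 3 it was 13.1, 12.8 and 8.48, with median percentiles of 73.2, 71.5 and 50.9. The lists were called separately, and their folds were not tested against each other. Folds of at least 10 were reached by 3, 5 and 4 of the KO sites, against 9, 8 and 8 of the WT sites. Among all sites of the lists that level was reached by 39.4%, 32.9% and 34.1% in KO and 37.3%, 37.8% and 41.5% in WT. TNFAIP3, RELB and MYD88 held most of the WT sites of that height.

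The authors' false discovery rate was high for most of these sites, with medians of 89.9%, 57.4% and 55.6% in KO lists and 57.6%, 57.3% and 66.2% in WT lists. It was high for the lists as a whole too. Medians over all sites were 75.3%, 62.2% and 47.6% in KO lists and 61.1%, 63.0% and 64.85% in WT lists. At 50% or less, the NF-κB genes kept 3, 4 and 6 sites in the KO lists and none in any WT list. The lists as a whole differed in the same direction, as given above.

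**Figure D3:**
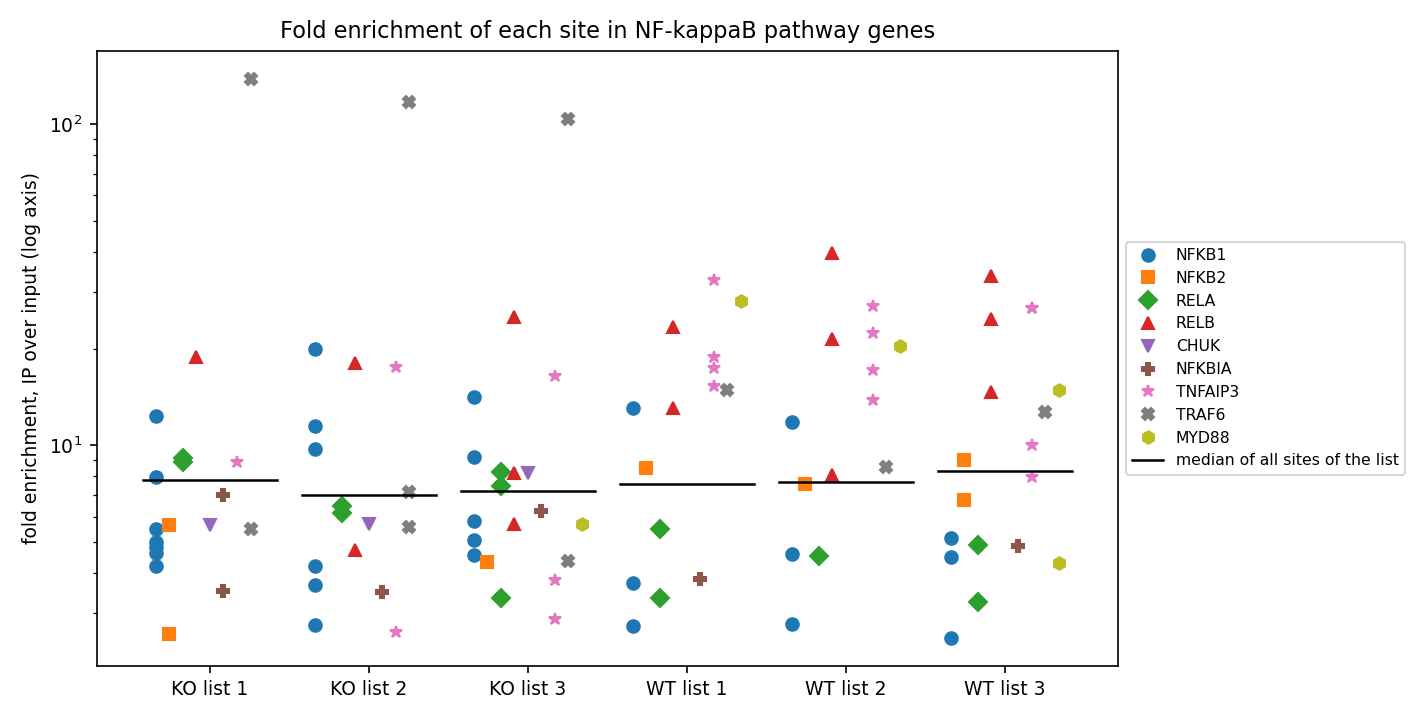
Fold enrichment of IP over input (y axis, log scale) of each site in the 9 NF-κB genes, by list, with KO lists at the left and WT lists at the right. Symbols mark genes and the black line is the median of all sites of the list. The TRAF6 5' UTR site stands apart at 104 to 138 in KO lists, and most TNFAIP3, RELB and MYD88 sites lie above the line in WT lists.

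By transcript part, NF-κB sites lay in the 5' UTR in 9 of 55 KO and 6 of 47 WT cases over the 3 lists of each genotype. That is 16.4% and 12.8%, against 6.91% to 7.24% of all sites in KO lists and 6.01% to 6.20% in WT lists. The 5' UTR sites came from NFKB1, TNFAIP3 and TRAF6 in KO and from TNFAIP3 and TRAF6 in WT, the same sites repeated in each list. Coding sequence held 22 KO and 26 WT sites, that is 40.0% and 55.3%, against 55.7% to 56.5% of all sites in KO lists and 56.0% to 57.1% in WT lists. The start codon held 7 and 9, that is 12.7% and 19.1%, against 14.3% to 14.96% in KO lists and 13.5% to 13.8% in WT lists. The stop codon held 9 and 4, that is 16.4% and 8.51%, against 12.9% to 13.6% in KO lists and 13.5% to 13.8% in WT lists. The 3' UTR held 8 and 2, that is 14.5% and 4.26%, against 8.63% to 8.88% in KO lists and 9.73% to 10.4% in WT lists. Parts are those of the transcript that the files name for each site, which differs between sites of RELA, NFKB2 and TNFAIP3. The lists repeat the same sites, so these counts are not independent and were not tested.

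The other genes of the pathway were read from a list of 75 genes, of which 61 had a site in some list and 24 in all 6. Site numbers were higher in every KO list for 13 genes and lower for 12, that is 21.3% and 19.7% of those with a site, against 23.7% and 23.1% of all genes. The remaining 36 overlapped. The median difference of KO minus WT was 0.333 sites, against 0.667 for the 9 NF-κB genes above and 0 for all genes. Among receptors, TLR1 to TLR6, IL1R1 and IL1RAP had no row in the lists used here, whereas TNFRSF1A and LTBR, receptors for TNF and lymphotoxin, had 1 site in every list. CD40, TNFRSF1B and TNFRSF11A had sites in some lists only, and their numbers overlapped between genotypes. REL, the remaining family subunit, had no row.

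Genes with sites in all KO and no WT list were TRAF3, BIRC2, OTULIN and UBE2N. They are 4 of the 61 with a site, in a class that holds 14.9% of all genes, so this count does not set the pathway apart. TRAF3, which with BIRC2 (cIAP1) keeps the noncanonical kinase NIK at a low level, had 4, 5 and 3 sites in KO lists. BIRC2 had 1 in each. UBE2N (UBC13), the conjugating enzyme that works with TRAF6, had 2 in each, with highest folds of 65.0, 50.9 and 63.6. OTULIN, which removes linear ubiquitin chains, had 1 in each, with folds of 3.19, 4.12 and 3.52.

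Genes with sites in all WT and no KO list, the class of 11.8% of all genes, were NFKBIZ, TRAF1, BIRC3, CYLD, IRAK4 and MALT1. BIRC3 (cIAP2), a relative of BIRC2 and a target of the pathway, had 1 site in each WT list with folds of 57.1, 64.0 and 83.1. CYLD, a deubiquitinase that restrains the pathway, had 3, 2 and 1 sites, and MALT1, a protease of lymphoid and epithelial signalling, 2, 3 and 3. IRAK4, the kinase recruited by MYD88, had 1 in each, as did TRAF1 and the atypical inhibitor NFKBIZ.

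Genes with many sites among those in all 6 lists were CARD10, TNIP1 and IKBKE. CARD10, a scaffold of non-immune cells, had 8, 8 and 10 sites in KO lists and 10, 10 and 8 in WT lists, which overlap. TNIP1, a partner of TNFAIP3, had 6, 9 and 9 in KO lists and 10, 9 and 8 in WT lists, which also overlap. IKBKE, a kinase related to the IκB kinases, had 6, 6 and 6 in KO lists and 3, 4 and 4 in WT lists. The largest single difference in the list, picked out after its values were seen, was that of MAP3K14 (NIK), the kinase that activates CHUK in the noncanonical arm. It had 0, 1 and 2 sites in KO lists and 6, 6 and 6 in WT lists, a difference of -5 sites (exact permutation p = 0.1).

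**Figure D4:**
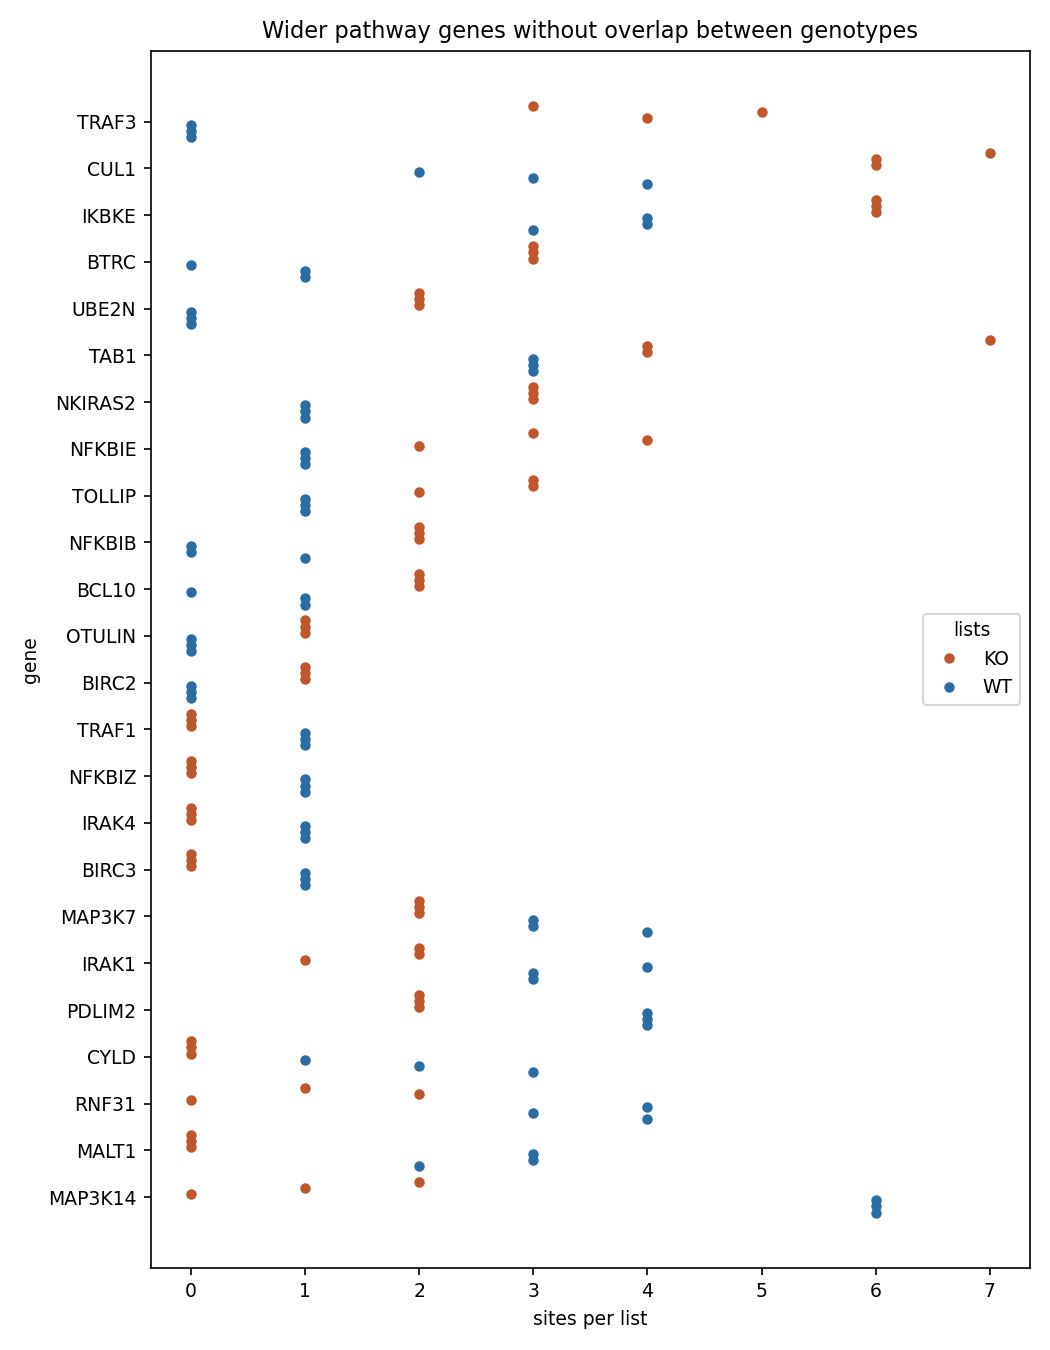
Sites per list (x axis) in 24 of the 25 genes of the wider pathway list whose KO and WT site numbers do not overlap (1 gene with fewer KO sites is not drawn), ordered by the difference of means. Each gene has 3 KO points (upper) and 3 WT points (lower), spread slightly in height so that equal values stay visible. TRAF3 leads the 13 genes drawn with more KO sites, and MAP3K14 ends the 11 drawn with fewer.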

How the data were processed

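ac4C-RIP-seq had been run on 12 libraries of HK-2 cells, 6 per genotype. Per the submitters' processing notes, the tools were HISAT2 2.0.4 and cutadapt 1.9.3, beside the build name hg38, without their roles. Each IP and input pair has its own list of MACS sites, per the file headers, so replicates were not pooled. The deposited score is the peak caller's log10 p-value of a site, with the sign turned and scaled by 10. The deposited fold is a ratio of IP over input. The authors gave the false discovery rate in percent. A further deposited column is the length in bases. Caller version, filters and annotation are not given in the sources used here. Of the 102 sites in NF-κB genes, all lay on the chromosome of their gene but only 3 within its span in GRCh38.p14, so the files' coordinates are of another build, not given in the sources used here. Printed starts are 1-based. No sequence was read at these coordinates.

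In KO list 1 the coordinates and transcript parts stand in another row order than the gene columns. They were rejoined by equal score and length, ties being settled by chromosome. This placed 13344 of 13818 rows, and all 18 rows of NF-κB genes. Tested on simulated data with shuffled WT lists, the join placed 99.1% to 99.3% of rows, 100% of them rightly by gene name. Those rows match by construction, so the result need not hold for KO list 1, where 474 rows stayed unplaced. Site numbers use the gene columns only.

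Sites were counted per gene and list by the files' gene names. Genotypes were compared over lists by a two-sided exact permutation test with Benjamini-Hochberg adjustment over all 10240 genes, in Python 3.11.15 with numpy 2.4.6. All 10 members were described. In the wider list, genes seen in all lists of 1 genotype only were named, with the 4 of most sites in all 6 lists, of which 1 is not reported here. Members, lists and tests were chosen with earlier results of these data known. The labels number replicates 1 to 3 in each genotype. Correlations of same-numbered deviations over genes were -0.0845, 0.0027 and -0.0779, so the numbers were not taken as pairs. No group reached the 4 samples needed to look for outlying values.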

Additional observations from a re-analysis of the deposited data

How the results depend on the processing

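Of 108 differences of single NF-κB genes recomputed under other settings, 100 kept their direction, 5 became 0 and 3 turned. The 100 include every gene with replicates paired by number (the replicate block), where the difference cannot change. They also include every gene with names updated by gene ID, where no difference changed. The 3 were NFKB2 without KO replicate 2 (0.167 sites, the top of a range from -0.833 when single lists were left out), and RELB (0.333) and TNFAIP3 (0.667) at a false discovery rate of at most 50%, where WT lists kept no NF-κB site. In that setting the difference in members with a site, 0.333 as reported, was 3.67, the members lower in KO numbered 0 in place of 1, and the genes lower in KO 273 in place of 2367. With equal list lengths the difference in members with a site was -0.667. Leaving out 1 list at a time, it ranged from -0.167 (without KO replicate 3) to 0.833. Members lower in KO ranged from 1 to 2, MYD88 joining TNFAIP3 without KO replicate 3. Regions in all KO and no WT list ranged from 4 to 9, the highest without KO replicate 2, and those in all WT and no KO list from 6 to 9, the highest without KO replicate 3, with 7 when an overlap of 50% of the shorter site was required. With fewer lists, separation is easier by construction. The difference in total sites, 2.67 as reported, was 2 at a fold of at least 4, 1.67 at a length of at least 50 bases, 1 with equal list lengths, 4.33 at a false discovery rate of at most 50% and 1.83 to 3.83 with single lists left out. With the replicate block it was 2.67, and no member could go under the smallest exact sign-flip permutation p of 0.25 that 3 pairs allow. In the settings run on site numbers, TRAF6 stayed separated throughout, CHUK did not with equal list lengths, and CHUK, NFKB1 and TNFAIP3 did not at a false discovery rate of at most 50%. No alternative that was run was left out. Region numbers were run only with the 50% overlap, at a fold of at least 4 and with single lists left out, not in the other settings. Without read counts, depth cannot be set beside any site.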

Other observations

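A pair of protein complexes that feed the IκB kinases had members on both sides, as read after the values were seen. Of all genes with a site, 23.7% had more in every KO list and 23.1% fewer, so these counts do not set the complexes apart. In the complex of BCL10 and MALT1, which links receptors to the kinases, BCL10 had 2, 2 and 2 sites in KO lists and 1, 1 and 0 in WT lists. MALT1, by contrast, had fewer in every KO list, as given above. In the ligase that builds linear ubiquitin chains, the catalytic subunit gene RNF31 had 0, 2 and 1 sites in KO lists and 4, 3 and 4 in WT lists. Its partner RBCK1 had 6, 5 and 6 in KO lists and 3, 3 and 5 in WT lists, which touch at 5. SHARPIN had 0, 0 and 1 in KO lists and 1, 1 and 1 in WT lists. These are numbers of sites, not of transcripts, and no complex was tested as a whole.

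The kinase module next to TRAF6 likewise held both directions, beside the same shares of all genes. TAB1, the activator of the kinase TAK1, had 4, 4 and 7 sites in KO lists and 3, 3 and 3 in WT lists. MAP3K7, which encodes TAK1, had 2, 2 and 2 in KO lists and 4, 3 and 3 in WT lists. TAB2 and TAB3 overlapped between genotypes. IRAK1, a kinase that acts between MYD88 and TRAF6, had 1, 2 and 2 in KO lists and 3, 3 and 4 in WT lists. The relatives of NFKBIA did not share a direction. NFKBIB had 2, 2 and 2 sites in KO lists and 1, 0 and 0 in WT lists, and NFKBIE had 2, 4 and 3 in KO lists and 1, 1 and 1 in WT lists, the order seen in 23.7% of all genes with a site. The highest folds of NFKBIE ran the other way, at 5.08, 10.5 and 9.58 in KO lists and 66.3, 89.1 and 63.3 in WT lists. NFKBIZ had none in KO lists and 1, 1 and 1 in WT lists, while NFKBID and BCL3 overlapped.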
